A study of Mus musculus with 19 samples.

Results

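The complement components and regulators described here are 9 genes, C3, C4b, C2, Cfb, C1ra, C1s1, Serping1, Cd55 and Cfp, chosen by name. All 9 were rows of the 20408 genes measured, and all 9 passed the filter on low values described under the processing. RNA-Seq was performed on the suprarenal abdominal aorta (SRA) of 19 male ApoE−/− mice on a C57BL/6 background, 24 h after the start of an infusion of angiotensin II (Ang II) or saline. ApoE−/− mice lack apolipoprotein E and become hypercholesterolemic, and Ang II infusion is a widely used way to induce abdominal aortic aneurysm in them. The mice lacking IKKβ (IKKβ−/−) were SMA-CreERT2 Ikkβ Flox/Flox ApoE−/−, and their control littermates (IKKβ+/+) were SMA-CreERT2 ApoE−/−, so that both genotypes carried the tamoxifen-inducible Cre and both lacked apolipoprotein E. All mice received tamoxifen from 8 weeks of age on 5 consecutive days and then an osmotic pump under isoflurane with carprofen analgesia. The labels give the Ang II dose as a range from 500.0 to 1000.0 ng/min/kg, and the study's sequencing methods give 1000.0 ng/min/kg for these mice. There were 5 IKKβ+/+ mice with saline, 5 IKKβ+/+ mice with Ang II, 4 IKKβ−/− mice with saline and 5 IKKβ−/− mice with Ang II. Cre was driven by the promoter of Acta2, the smooth muscle actin gene, so that Ikbkb, the gene of IKKβ, is deleted in vascular smooth muscle cells, whereas each library holds RNA from the whole aortic wall.

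Complement is a cascade of blood and tissue proteins that marks targets for removal and calls in leukocytes. In the classical pathway, C1q binds a target and activates the proteases C1r and C1s, which cleave C4 and C2. The fragments form an enzyme, the C3 convertase, that cleaves C3, the component on which all routes converge. In the alternative pathway, factor B (Cfb) takes the place of C2, and properdin (Cfp) stabilizes the resulting convertase. Serping1 encodes C1 inhibitor, which blocks C1r and C1s, and Cd55 encodes decay-accelerating factor, a membrane protein that takes convertases apart. The liver makes most of the circulating proteins, and fibroblasts and macrophages also make many of them, whereas properdin comes mainly from leukocytes. Several of these genes are known targets of interferon, interleukin-6 or NF-κB signalling, the last of which depends on IKKβ.

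The genes lie at 6 places in the mouse genome (GRCm38). C2 (chr17:34862604-34898265) and Cfb (chr17:34856374-34862518) are neighbours on the minus strand of the major histocompatibility region, with 85 bases between them, and C4b (chr17:34728380-34743882, minus strand) lies in the same region. C1ra (chr6:124512405-124523443, plus strand) and C1s1 (chr6:124530345-124542359, minus strand) are separated by 6901 bases. C3 is at chr17:57203970-57228136, Serping1 at chr2:84765387-84775444, Cd55 at chr1:130439027-130462744 and Cfp at chrX:20925454-20931555, all on the minus strand. C2 and Cfb come with a limit of annotation, because a gene model on the same strand, Gm20547, covers 42.8% of the exon bases of C2 and 79.5% of those of Cfb in the annotation used here. Reads from these bases could have been left out of the counts of C2 and Cfb. C1s1 shares 18.4% of its exon bases with Gm16567 on the opposite strand.

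RefSeq promoter sequences (GRCm38.p6, from 250 bases before to 50 bases after the start site) were at hand for 5 of the 9 genes. Those of C1ra and C1s1 are shown because the levels of these neighbours moved together from mouse to mouse, and that of C3 because it is the component on which the pathways converge. They are written 5′ to 3′ on the strand of the gene, and capitals mark a match to the STAT motif TTCNNNGAA. RefSeq gives another start site for C1s1, whose window (chr6:124542272-124542571) overlaps the one shown. The RefSeq start site used for C1ra lies inside the gene model located above, which begins at chr6:124512405, so most of its window is within that model.
C1ra (chr6:124512371-124512670, plus strand): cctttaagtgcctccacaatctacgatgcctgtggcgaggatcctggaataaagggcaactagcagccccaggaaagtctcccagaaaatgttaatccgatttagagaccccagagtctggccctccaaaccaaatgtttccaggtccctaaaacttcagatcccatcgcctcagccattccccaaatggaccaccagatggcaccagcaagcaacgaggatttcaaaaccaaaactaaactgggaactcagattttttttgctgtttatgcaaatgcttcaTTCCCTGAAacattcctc
C1s1 (chr6:124542310-124542609, minus strand): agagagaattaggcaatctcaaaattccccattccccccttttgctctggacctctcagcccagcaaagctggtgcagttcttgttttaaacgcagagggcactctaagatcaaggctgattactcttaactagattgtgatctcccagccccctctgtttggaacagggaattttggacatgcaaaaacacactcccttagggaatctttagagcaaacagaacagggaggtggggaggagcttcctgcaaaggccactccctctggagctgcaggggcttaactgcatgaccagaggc
C3 (chr17:57228087-57228386, minus strand): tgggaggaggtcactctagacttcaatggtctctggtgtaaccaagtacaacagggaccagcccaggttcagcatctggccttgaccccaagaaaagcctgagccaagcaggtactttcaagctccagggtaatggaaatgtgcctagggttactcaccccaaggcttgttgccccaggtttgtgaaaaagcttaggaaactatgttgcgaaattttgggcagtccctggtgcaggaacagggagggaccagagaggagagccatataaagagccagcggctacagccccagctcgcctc
The match in C1ra, TTCCCTGAA, lay 33 to 41 bases after the start site and was the only match to the 3 motifs searched on both strands among the promoters of C1ra, C1s1, C3, Cd55 and Cfp. The STAT motif occurred in 8.3% of 32851 promoters of this length, the interferon response element GAAANNGAAA in 3.44% and the NF-κB consensus in 4.51%. These are matches of letters and describe no binding.

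The libraries held 11382573 to 19906694 reads on genes, and values are normalized counts, that is reads divided by a size factor per library. Ikbkb measured 594 to 791 in the IKKβ+/+ mice with saline and 439 to 586 in the IKKβ−/− mice with saline, groups that did not overlap, and 685 to 779 against 430.2 to 672 with Ang II, which did not overlap either. The limma difference averaged over treatments was −0.40 on the log2 scale (SE 0.09, adjusted p = 0.0232), as measured in tissue in which other cells keep the gene. Summed smooth muscle markers (Myh11, Acta2, Tagln, Cnn1, Lmod1, Smtn) were between 304360 and 633459 normalized counts, above the adventitial fibroblast markers (67046 to 161736), and macrophage and adipocyte markers were also detected. Hepatocyte markers (Alb, Apoa1, Ttr, Serpina1a, Fgb, Ahsg) summed to between 24.7 and 379. Mouse X2380 (IKKβ−/−, Ang II) stood apart in the complement genes: it had the lowest value of the 19 mice in 5 of the 9 and was among the lowest 3 in 8. It also had the lowest summed fibroblast markers (67046) and macrophage markers (1348), and mouse X2350 (IKKβ+/+, Ang II) had the next lowest fibroblast markers (81964). Mice X2384 and X2385 (IKKβ−/−, Ang II) had the highest adipocyte marker scores.

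Per kilobase of full exon length, Serping1 was the highest of the 9 genes and Cfb the lowest. The lengths of Cfb and C2 include the 79.5% and 42.8% of exon bases shared with Gm20547. Reads from those bases could be missing from their counts, so the order among the lowest genes is uncertain. Over the 19 mice, Serping1 averaged 3675 ± 1142 normalized counts per kb (SD, n = 19), followed by C3 at 2048 ± 1441 and C1s1 at 831 ± 249.8. C1ra (487 ± 152) and C4b (323 ± 194) came next, and Cfp (110 ± 33.2), Cd55 (77.6 ± 27.2), C2 (31.7 ± 10.2) and Cfb (14.1 ± 8.16) were low. The ranges of each neighbouring pair in this order overlapped. The spread differed from gene to gene: the highest mouse exceeded the lowest 16.2-fold for Cfb and 12.5-fold for C3, 7.68-fold for C4b, and between 2.74-fold and 4.74-fold for the other 6. The inhibitor of the first step was thus measured at a higher level per length than C1ra and C1s1, the proteases it blocks.

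**Figure D1:**
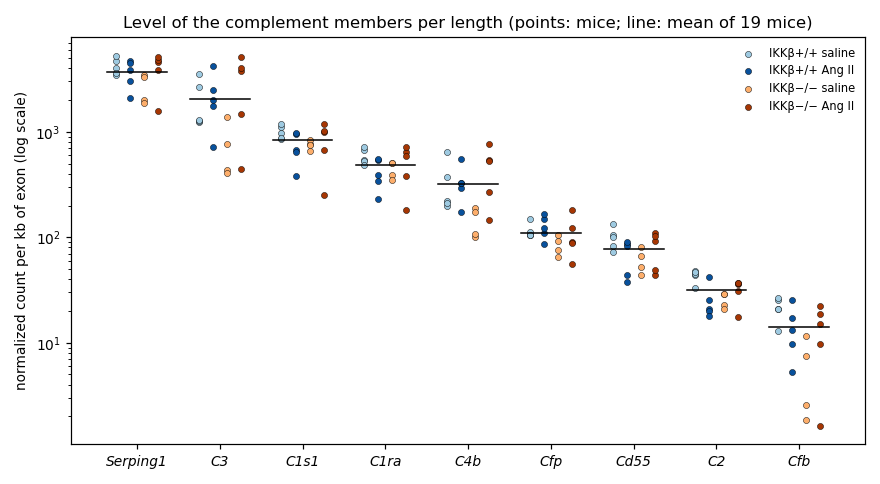
Normalized counts per kilobase of exon (log axis) of the 9 genes in each of 19 mice, coloured by group, with the mean of all mice as a line. Serping1 (mean 3675) and C3 (2048) are at the top, Cfb (14.1) at the bottom, and C3, C4b and Cfb have the widest spread. The lengths of C2 and Cfb include bases shared with Gm20547, so their levels per length could be too low.

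C3, the central component, was the most variable of the abundant genes. Its normalized counts were 6438, 6535, 13711, 6705 and 18231 in the saline group of IKKβ+/+ mice, and after Ang II they were 3686, 8935, 12699.5, 10242 and 21563. The IKKβ−/− mice with saline had 3920.3, 2217, 2083 and 7154. Only mouse X2409 (7154) of this group reached the range of the IKKβ+/+ mice with saline. The IKKβ−/− mice with Ang II had 2297, 7596, 26075, 19227 and 20829, spanning the range from the saline mice of the same genotype to the highest value of the data. Group means were 10324 ± 5398 (SD, n = 5), 11425 ± 6556 (n = 5), 3843 ± 2360.2 (n = 4) and 15205 ± 9880.1 (n = 5) in the same order.

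C4b, which provides the C4 fragment of the classical convertase, followed the order of C3. Its normalized counts were 1125, 1245, 2106, 1202 and 3624 in saline-infused IKKβ+/+ mice and 988, 1684, 1869, 1853 and 3139 after Ang II. The IKKβ−/− mice with saline had 1082, 573, 616 and 984, each below all 5 IKKβ+/+ mice with saline. The IKKβ−/− mice with Ang II had 835, 1525, 4401, 3053 and 3009, of which mouse X2380 (835) lay within the saline range of the genotype and the other 4 above it. C4a, the close relative of C4b whose reads could be confused with it, was at 0 to 25.7 normalized counts.

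C2, the other part of the classical convertase, was at 185, 171, 174, 128 and 180.1 normalized counts in the IKKβ+/+ mice with saline. With Ang II these mice had 81.4, 77.9, 161, 68.8 and 99.4, of which only mouse X2356 (161) overlapped the saline mice. The IKKβ−/− mice had 111, 113, 88.3 and 81.3 with saline, all below the IKKβ+/+ mice with saline, and 67.5, 139.7, 142, 119 and 141 with Ang II. Of the last 5 values, 4 were thus above the saline mice of the same genotype, the reverse of the order in IKKβ+/+ mice.

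Cfb, the alternative pathway counterpart of C2, had few reads counted, so that counting error is part of its spread. Reads from the bases it shares with Gm20547 could be missing from these counts. The IKKβ+/+ mice had 36.6, 59.5, 71.4, 58.9 and 74.9 normalized counts with saline and 15.0, 37.4, 48.3, 27.7 and 71.6 with Ang II. The IKKβ−/− mice had 21.2, 5.27, 7.21 and 32.7 with saline, all lower than each IKKβ+/+ saline mouse. The values of 5.27 (X2403) and 7.21 (X2406) rested on 5 and 4 reads. With Ang II they had 4.62, 42.9, 62.3, 27.3 and 52.7. Mouse X2380 (4.62) was the lowest of all mice and the other 4 overlapped the IKKβ+/+ groups.

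The proteases C1ra and C1s1 and their inhibitor Serping1 moved less. C1ra averaged 1764 ± 304 (SD, n = 5) in saline-infused IKKβ+/+ mice, 1224 ± 400.4 (n = 5) after Ang II, 1303 ± 240.2 (n = 4) in saline-infused IKKβ−/− mice and 1490.4 ± 643 (n = 5) after Ang II. C1s1 averaged 3133 ± 468, 2273 ± 769, 2355 ± 228 and 2585 ± 1162 in the same order. The C1s1 values of the IKKβ−/− mice with saline (2052 to 2603) were all below those of the IKKβ+/+ mice with saline (2679.6 to 3736), whereas for C1ra these groups overlapped. Serping1 averaged 9781 ± 1796, 8427 ± 2484, 6207 ± 1953 and 9294 ± 3369.8, and its groups overlapped in each of the 4 pairwise comparisons.

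Among the other regulators, Cd55 averaged 479 ± 114 in saline-infused IKKβ+/+ mice, 330.1 ± 122 after Ang II, 295 ± 80.5 in saline-infused IKKβ−/− mice and 386 ± 152 after Ang II. Its highest value was 651 (IKKβ+/+, saline) and its lowest 183 (IKKβ+/+, Ang II). Cfp averaged 199.7 ± 32.4, 220.3 ± 55.3, 146 ± 30.9 and 186 ± 83.1 in the same order. For both genes the groups overlapped in all 4 pairwise comparisons.

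**Figure D2:**
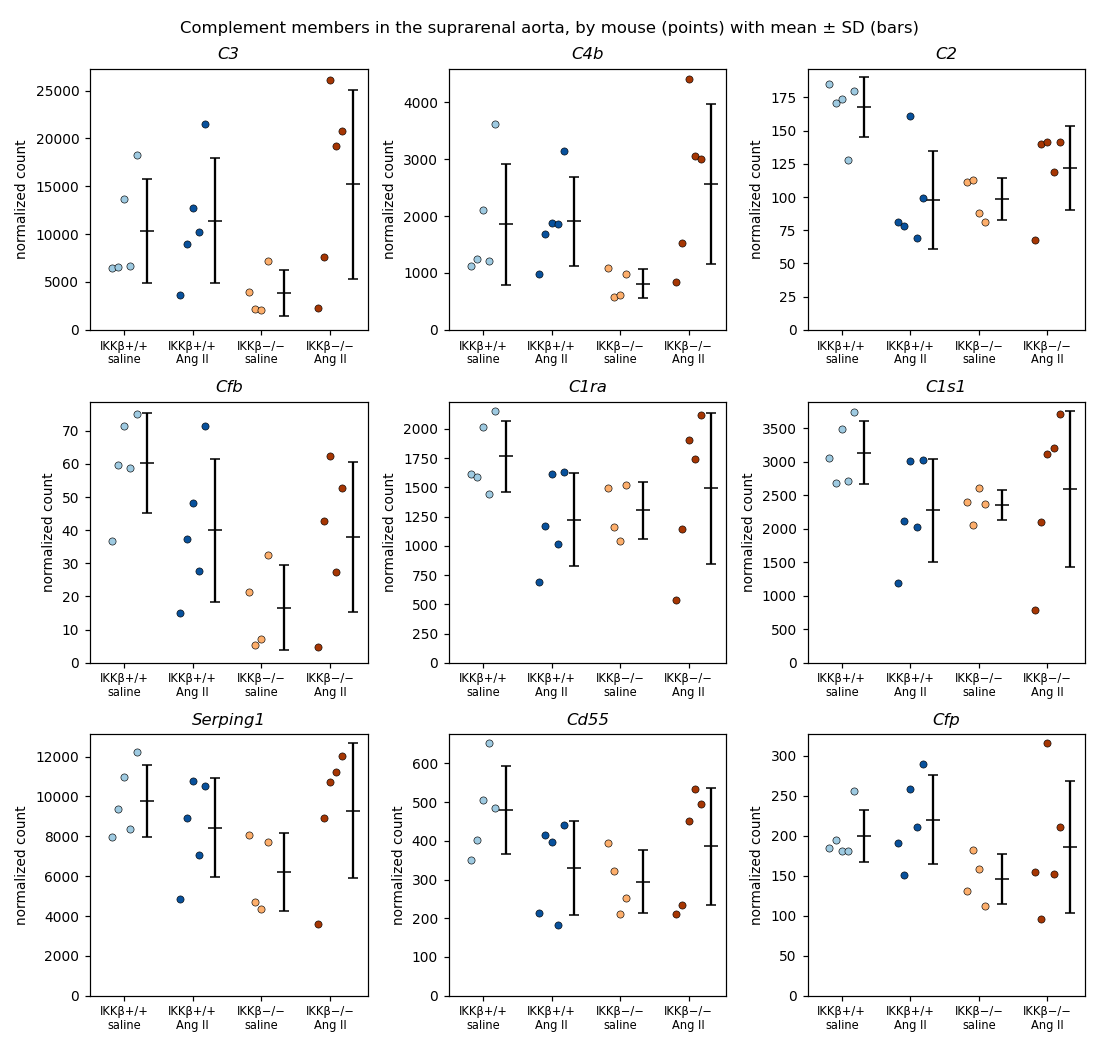
Normalized counts (linear axes from 0) of the 9 genes in each mouse, by genotype and infusion, with the mean and SD of each group beside its points. The 4 IKKβ−/− mice with saline sit below all 5 IKKβ+/+ mice with saline for C4b, C2, Cfb and C1s1, and 1 IKKβ−/− mouse with Ang II (X2380) is low in most panels.

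The effect of Ang II in mice with IKKβ was examined first. C2 fell, and no other of the 9 genes was called. Its log2 fold change, here and below on the log2(normalized count + 1) scale, was −0.83 (SE 0.23, limma adjusted p = 0.0455), that is 0.563 times the saline level. Genes were called where the adjusted p was below 0.1 and the fold change exceeded 1.2, and 8.66% of the 14845 genes tested were called in this comparison, against 1 of 9 here. The values of C1ra (−0.58, adjusted p = 0.276), Cd55 (−0.60, adjusted p = 0.256), C1s1 (−0.53, adjusted p = 0.363) and Cfb (−0.71, adjusted p = 0.524) did not pass. C3 and C4b were close to 0 at 0.08 and 0.10, with 95% intervals from −1.11 to 1.27 and from −0.74 to 0.93. The median of the 9 log2 fold changes was −0.53, with 6 of 9 negative, beside a median of 0.01 over all genes tested. In bulk tissue, fewer cells of a type and less RNA per cell cannot be told apart. Of the 8 fibroblast markers, 7 had negative values in this comparison and 2 fell (Cd34 by 0.80 and Lum by 1.27, log2), and their part in the C2 result was examined only by adding the fibroblast score to the fit, which gave −0.56 for C2 (adjusted p = 0.189). In that fit C3 was called instead, at 1.09 (adjusted p = 0.0499). Without mouse X2350, X2358 or X2378, C2 lost its call (adjusted p = 0.124, 0.135 and 0.104).

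In mice lacking IKKβ in smooth muscle, C4b rose with Ang II and C3 had the larger but more variable value. C4b was 2.81-fold higher than with saline (log2 fold change 1.49, SE 0.42, adjusted p = 0.0638), and C3 was at 1.74 (SE 0.61, 95% interval 0.48 to 3.004, adjusted p = 0.129). C3 was called on the recovered reads by DESeq2 (1.98, adjusted p = 0.0159) and edgeR (1.98, adjusted p = 0.0843), and by limma with array weights (1.80, adjusted p = 0.0854). Of all genes tested 5.29% were called, against 1 of 9 here. Cfb (1.09, adjusted p = 0.37), Serping1 (0.52, adjusted p = 0.39), Cd55 (0.32), C2 (0.27) and Cfp (0.26) were positive but did not pass, and C1ra (0.06) and C1s1 (−0.04) were near 0. The median was 0.32, with 8 of 9 positive, beside 0.00 over all genes. All 4 adipocyte markers that could be tested (Adipoq, Plin1, Fabp4, Cidec) rose in this comparison, with a median log2 fold change of 4.37. With the adipocyte score in the fit C4b was at 0.93 (adjusted p = 0.64) and 15 of all genes tested were called. With the fibroblast score in the fit 3 members were called, C4b at 1.42 (adjusted p = 0.00227), C3 at 1.63 (adjusted p = 0.0021) and Serping1 at 0.47 (adjusted p = 0.0333). The call of C4b was lost without mouse X2384, X2385, X2386, X2403 or X2406 (adjusted p between 0.124 and 0.163), and without X2384 and X2385 together it was at 0.998 (adjusted p = 0.312). Without mouse X2380, 4 members were called, C4b (1.84), C3 (2.31), Cfb (1.69) and Serping1 (0.83). Without X2409, C3 was called beside C4b (2.10, adjusted p = 0.0807).

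At baseline, with saline in both genotypes, Cfb and C2, the paired components of the alternative and classical convertases, were lower in IKKβ−/− mice. Cfb was at 0.235 times the IKKβ+/+ level (log2 difference −2.09, SE 0.62, adjusted p = 0.079) and C2 at 0.588 times (−0.77, SE 0.24, adjusted p = 0.0967). Of all genes tested 5.47% were called, 3.4% higher and 2.07% lower, against 2 of 9 here, both lower. The other 7 had negative values that did not pass, led by C3 (−1.47, SE 0.61, adjusted p = 0.191) and C4b (−1.09, SE 0.42, adjusted p = 0.166), then Cd55 (−0.71), Serping1 (−0.69), Cfp (−0.46), C1ra (−0.44) and C1s1 (−0.40). The median was −0.71, beside −0.02 over all genes. The 2 groups did not overlap for C4b, C2, Cfb and C1s1, 4 of 9, and 8.76% of all genes did not overlap in this comparison. The 8 fibroblast markers were all negative here (median −0.45), with none called by limma and 2 (Pdgfra, Pi16) at an unadjusted p under 0.05, and the 7 macrophage markers were all negative with Adgre1 (−1.02) and Cd68 (−0.93) called. Adipocyte markers were negative in 4 of 4 (median −2.27) and endothelial markers in 5 of 6 (median −0.61). Smooth muscle markers were positive in 6 of 6 (median 0.29). None of these last 3 lists held a called gene. With the fibroblast score in the fit Cfb was at −1.28 (adjusted p = 0.153) and C2 at −0.53 (adjusted p = 0.235). With the macrophage score they were at −0.83 and −0.35 (adjusted p = 0.578 and 0.586), and with the adipocyte score at −2.06 and −0.63 (adjusted p = 0.141 and 0.23).

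Both calls at baseline lay close to the threshold. They were lost together without any 1 of the IKKβ+/+ saline mice (X2370, X2372, X2373, X2376, X2378) or without X2401, X2403 or X2406, where the log2 differences were −1.70 to −2.31 for Cfb and −0.72 to −0.86 for C2. C2 alone was lost without X2352, X2359, X2384, X2385 or X2409, and without X2409 C3 was called (−1.83, adjusted p = 0.0944). Without X2380, whose group is not in this comparison but shares its estimate of the spread, 5 members were called, Cfb, C2, C4b, C3 and Serping1. A fit of the 2 saline groups alone called 7, the same 5 with Cd55 and C1s1, where 1420 of all genes tested were called in place of 812.

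With Ang II in both genotypes no difference between them was called among the 9 genes. Of all genes tested 0.128% were called, and none of the 9 had an unadjusted p under 0.05. edgeR and DESeq2 also called none of the 9. C2 (0.33), C4b (0.30), Cd55 (0.21), C1ra (0.20), C3 (0.20), Serping1 (0.08) and C1s1 (0.08) were positive, and Cfb (−0.28) and Cfp (−0.32) negative. The intervals were wide, from −0.995 to 1.39 for C3 and from −1.49 to 0.93 for Cfb, and differences within them could not be told from none at this number of mice.

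**Figure D3:**
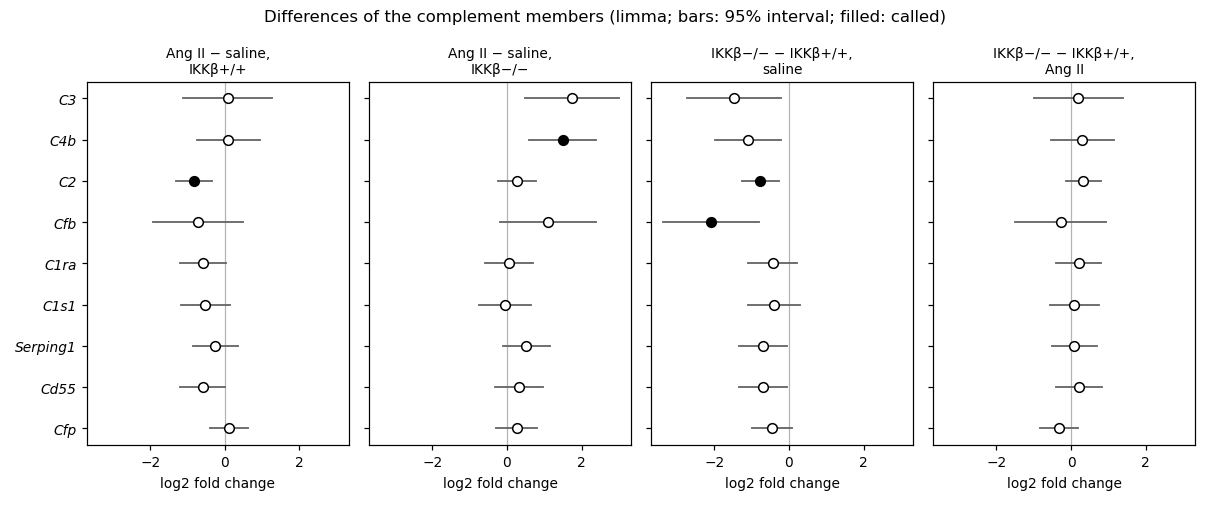
Log2 fold changes of the 9 genes in 4 comparisons with 95% intervals from limma, filled where called. C2 is called lower with Ang II in IKKβ+/+ mice, C4b higher with Ang II in IKKβ−/− mice, and C2 and Cfb lower in IKKβ−/− mice with saline, and none is called between genotypes with Ang II.

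The comparisons above share groups, and the saline mice of each genotype enter more than 1 of them. Averaged over genotypes, C4b was the only member to rise with Ang II (0.79, SE 0.29, adjusted p = 0.095), in a comparison that called 12.7% of all genes. This call was lost without mouse X2352, X2356, X2358, X2359, X2370, X2372, X2373, X2376, X2384, X2385, X2386, X2403 or X2406 (adjusted p between 0.105 and 0.164), and with the adipocyte score in the fit C4b was at 0.46 (adjusted p = 0.562). In the same comparison C3 was at 0.91 (SE 0.42, adjusted p = 0.181), and both edgeR and DESeq2 called it beside C4b. Averaged over treatments, no member was called between genotypes by limma, edgeR or DESeq2, where 7.24% of all genes were called. Cfb was lowest at −1.18 (SE 0.42, adjusted p = 0.116), followed by C3 (−0.64), C4b (−0.39, adjusted p = 0.446) and Cfp (−0.39, adjusted p = 0.207), and Cfb and Cfp were the members with an unadjusted p under 0.05.

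Whether the response to Ang II differed between genotypes was tested as the difference of the 2 effects. No member was called by limma, and 0% of the 14845 genes tested were (1654 had an unadjusted p under 0.05, and the smallest adjusted p was 0.215). All 9 estimates were positive, on the side of a higher Ang II effect in IKKβ−/− mice. Their median was 0.92 beside 0.00 over all genes. The 95% intervals of C3, C1ra, C1s1, Serping1 and Cfp included 0. The 9 genes were measured in the same mice, so their signs are not independent. C2 had the smallest p of the 9 (1.10, SE 0.33, 95% interval 0.40 to 1.79, unadjusted p = 0.00358, adjusted p = 0.27). C4b (1.39, SE 0.58), Cfb (1.81, SE 0.85) and Cd55 (0.92, SE 0.42) had unadjusted p of 0.0272, 0.0452 and 0.0424, and C3 was at 1.66 (SE 0.83, unadjusted p = 0.0596). C2 was called by DESeq2 (1.09, adjusted p = 0.0964), where 279 of all genes tested were called, not by edgeR, and by limma without mouse X2356 (1.29, adjusted p = 0.0964). The saline groups that set these estimates are those of the baseline comparison. In the same limma test 8 of 8 fibroblast markers were positive (median 0.57), with 0 called or at an unadjusted p under 0.05. Positive values were also held by 4 of 4 adipocyte (median 3.59), 6 of 6 endothelial (0.42) and 6 of 7 macrophage markers (0.42). All 6 smooth muscle markers were negative (median −0.57). The part of tissue mix in the member estimates was examined only by adding a marker score to the fit. With the fibroblast, macrophage or adipocyte score no member was called. Over all alternatives C3 was between 0.54 and 2.24 and C4b between 0.65 and 1.74, while C1s1 and Cfp reached −0.14 and −0.30. Tissue mix itself was not tested.

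From mouse to mouse within groups, the complement genes deviated in the same direction. With group means removed, all 36 pairs of the 9 genes had a positive correlation over 19 mice, from 0.15 to 0.96 with a median of 0.70. The libraries share their depth scaling and their mix of tissue, and the values describe these 19 mice only. For 3 pairs a permutation test within groups was made. The neighbours C1ra and C1s1 had Pearson r = 0.95 and Spearman rho = 0.87 (100000 permutations, two-sided p = 2e-05 and 0.00019, adjusted over 3 pairs 3e-05 and 0.000285), and r = 0.85 without X2350 and X2380, the mice farthest from the median. The paralogs C3 and C4b had r = 0.95 and rho = 0.91 (permutation p = 1e-05, the smallest these permutations can give, and 3e-05, adjusted 3e-05 and 9e-05), and r = 0.95 without X2384 and X2406. The neighbours C2 and Cfb had r = 0.52 and rho = 0.47 (permutation p = 0.0664 and 0.0764), and r = 0.14 without X2358 and X2380. The relation of C1ra with C1s1 and that of C3 with C4b held without the farthest mice, and that of C2 with Cfb did not pass and rested on them.

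The same deviations followed the adventitial fibroblast markers (Pdgfra, Pi16, Dpt, Lum, Dcn, Col1a1, Cd34, Ly6a). The correlation with the mean of these markers was 0.97 for C1ra, 0.94 for Serping1, 0.93 for C1s1, 0.91 for C3, 0.85 for C4b, 0.82 for Cfb, 0.79 for Cd55, 0.66 for C2 and 0.38 for Cfp, over 19 mice with group means removed. With the macrophage markers it was between 0.55 and 0.71, with the adipocyte markers between 0.02 and 0.51, and with the smooth muscle markers between −0.73 and −0.35. Cfp thus stood lowest on the fibroblast scale and was at 0.69 on that of macrophages. Of 11394 genes outside the complement lists, the 5 most like the mean of the 9 members were Pltp (phospholipid transfer protein, r = 0.98), Dpt (dermatopontin, an extracellular matrix protein that is also on the fibroblast list, 0.95), Hsd11b1 (which regenerates active glucocorticoid, 0.95), Abca9 (an ABC transporter, 0.95) and Egflam (pikachurin, a matrix protein, 0.94). These correlations are descriptions over mice that share group, depth and tissue mix.

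**Figure D4:**
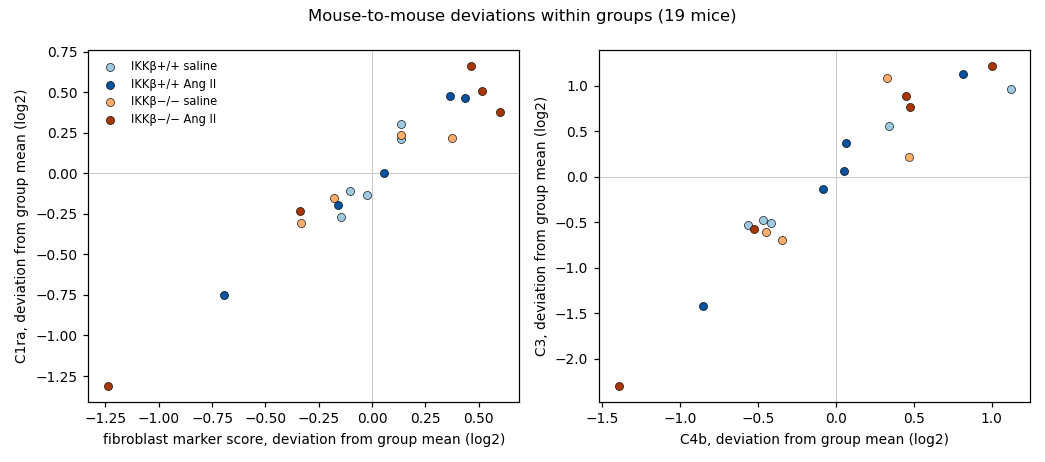
Deviation of each of 19 mice from its group mean (log2), for C1ra against the fibroblast marker score (left, r = 0.97) and for C3 against C4b (right, r = 0.95). Mouse X2380 is the lowest point in both panels.

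The wider complement system was followed in 48 further genes, of which 39 were in the table and 30 passed the filter. With Ang II in IKKβ+/+ mice, 1 rose and 1 fell, 2 of 30 beside 8.66% of all genes tested. Masp1, a protease that serves the lectin pathway, was at 6.66, 22.2, 29.1, 34.2 and 23.9 normalized counts with saline and 60.0, 71.5, 76.8, 116 and 179.9 with Ang II, with no overlap (2.12, SE 0.60, adjusted p = 0.049). Colec12, a scavenger receptor collectin, fell by 0.54 on the log2 scale (adjusted p = 0.0509), from between 3312 and 4389.8 to between 2066 and 2997. In IKKβ−/− mice 2 of 30 rose and none fell, beside 5.29% of all genes called. Masp1 was at 15.4, 10.5, 0 and 5.81 with saline and between 32.3 and 111 with Ang II (3.61, adjusted p = 0.00582). The difference of the 2 Masp1 effects was not called (1.49, adjusted p = 0.52). Cfd, which encodes the protease that cleaves factor B and is also known as adipsin for its source in fat cells, was at 169, 255, 84.7 and 174 with saline and 1669, 725, 11730.0, 16457 and 2269 with Ang II (4.46, adjusted p = 0.0132). The 2 highest Cfd values belonged to X2384 and X2385, the mice with the highest adipocyte scores, and Adipoq in the same 5 mice was at 489.8, 194, 3350.4, 3298 and 888. The median of the 30 genes was −0.13 in IKKβ+/+ and 0.27 in IKKβ−/− mice.

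At baseline 3 of the 30 fell in IKKβ−/− mice and none rose, beside 2.07% and 3.4% of all genes, and all 3 were receptors of complement fragments or their chains. Itgb2, the common chain of complement receptors CR3 and CR4, was at 206, 180.2, 195, 371 and 187 in IKKβ+/+ mice and 88.8, 83.2, 79.3 and 72.6 in IKKβ−/− mice (−1.43, SE 0.28, adjusted p = 0.0367). C3ar1, the receptor of the C3a fragment, was at 146 to 250.1 against 81.1 to 142 (−0.96, adjusted p = 0.0575), and Itgax, the other chain of CR4, at 15.9 to 70.7 against 3.6 to 28.4 (−1.99, adjusted p = 0.0902). These receptors are made by macrophages and other leukocytes. Of 7 macrophage markers, 2 (Adgre1 and Cd68) were called lower in the same comparison. None of the 3 neutrophil, 1 T cell and 2 B cell markers tested was called. Whether the number of leukocytes had a part in the receptor values was not tested. In all, 26 of the 30 had negative values, with a median of −0.59, beside −0.02 over all genes. With Ang II in both genotypes limma called none of the 30, 6 had an unadjusted p under 0.05, and Itgb2 was at −1.17 (adjusted p = 0.124). Averaged over treatments, Itgb2 (−1.30, adjusted p = 0.00296), C3ar1 (−0.75, adjusted p = 0.03), Itgax (−1.30, adjusted p = 0.0886) and Clu, the fluid-phase regulator clusterin (−0.36, adjusted p = 0.0405), were lower in IKKβ−/− mice, 4 of 30 beside 7.24% of all genes called. Averaged over genotypes, C1rl (−0.50, adjusted p = 0.0643), Colec11 (−1.03, adjusted p = 0.0626) and Colec12 (−0.43, adjusted p = 0.0216) fell with Ang II, while Masp1 (2.86) and Cfd (2.76) rose, 5 of 30 beside 12.7% of all genes called.

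**Figure D5:**
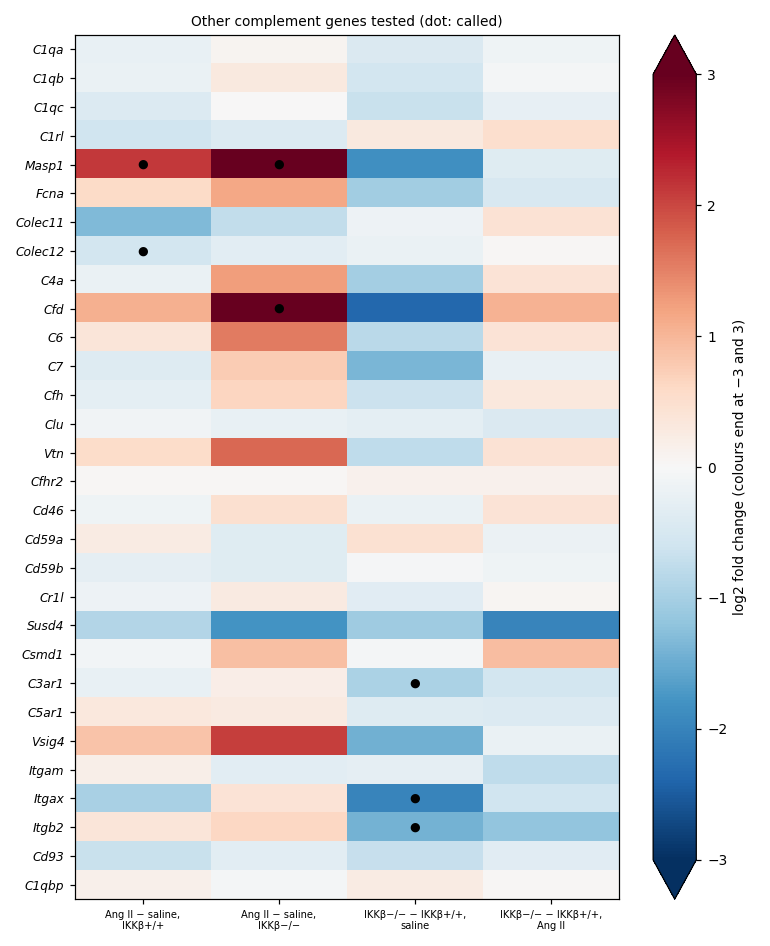
Log2 fold changes of the 30 further complement genes tested in 4 comparisons (colour, ending at −3 and 3), with a dot where called. Masp1 is called in both Ang II columns, Cfd in IKKβ−/− mice, and C3ar1, Itgax and Itgb2 in the saline column between genotypes.

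Genes known to respond to the signals that act on complement genes were followed in 3 lists. Of all genes tested, 4.33% were called lower and 4.33% higher with Ang II in IKKβ+/+ mice. In IKKβ−/− mice these shares were 2.69% and 2.59%, so fewer calls were made there in general. At baseline 2.07% were called lower and 3.4% higher in IKKβ−/− mice. Of 11 interferon-gamma targets, 7 fell with Ang II in IKKβ+/+ mice, with Irf1 at −1.05 (adjusted p = 0.00663), Gbp3 at −1.48 (adjusted p = 0.00735) and Psmb9 and Tap1, which like C2 and Cfb lie in the major histocompatibility region, at −1.24 and −0.92 (adjusted p = 0.0259 and 0.0217). The median of this list was −1.05, and 2 fell in IKKβ−/− mice (median −0.38). Of 8 acute phase and STAT3 targets, 4 rose with Ang II in IKKβ+/+ mice and 3 in IKKβ−/− mice. Among them Lcn2 (lipocalin 2) rose by 2.15 and 4.44 (adjusted p = 0.0258 and 0.000553) and Hp (haptoglobin) by 2.74 and 4.37 (adjusted p = 0.0747 and 0.0151), while Cebpd rose in IKKβ+/+ mice (1.17, adjusted p = 0.00601) and was at 0.05 in IKKβ−/− mice. In IKKβ−/− mice with Ang II, the summed counts of these 8 genes were 6756 in X2384 and 7563 in X2385, the mice with the highest adipocyte scores. X2380, X2383 and X2386 had 3138, 3079 and 3348, and the saline mice of this genotype 1953 to 2533. The part of fat cells in the rises of this list was not tested. At baseline Lcn2 (−2.16), Osmr (−0.60) and Il1r1 (−0.48) were lower in IKKβ−/− mice and Cebpd (0.76) higher. Of 8 NF-κB feedback targets, Nfkbia rose with Ang II in IKKβ+/+ mice (0.89, adjusted p = 0.0107) and Tnfaip3 was lower at baseline in IKKβ−/− mice (−0.96, adjusted p = 0.0512). The difference of the Ang II effect between genotypes was called by limma for none of the 27 genes on these lists, of which 5 had an unadjusted p under 0.05.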

How the data were processed

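RNA-Seq was performed on the SRA of 19 mice. Per the labels and the study's methods, the authors trimmed the reads (Trimmomatic 0.35), aligned them to GRCm38 with Gencode M25 (STAR 2.7.1a), took read counts from STAR (RSEM served for TPM, not used here) and normalized the counts with DESeq2 (1.30.1), and the deposited values are a signal of reads per gene divided by a size factor per library. Whole reads could be recovered for 100% of values (tolerance 0.001 read) and give each library's depth and the count tests. The authors' table holds genes with a value above 0 in at least 4 mice. Values were tested with limma (3.58.1, trend) on log2(normalized count + 1) in 1 fit of the 4 groups, for the 14845 genes that reached 10 normalized counts in 4 mice or more (5563 left out). P-values were two-sided, adjusted by Benjamini-Hochberg over all genes tested, and called under 0.1 with a fold change above 1.2. Scores are means of centred log2 values of a marker list.

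edgeR (4.0.16) and DESeq2 (1.42.0) were run on the recovered reads as alternatives, with TMM scaling, a pseudocount of 4, no filter, other thresholds, array weights, marker covariates and each mouse left out. The fit was tested on simulated data. Positions and exon lengths come from the Gencode M21 annotation of GRCm38, and correlations from Python 3.11.15. The 9 members and all gene lists were chosen with earlier results of these data known. All 9 members were named, other complement genes where called, and the 5 genes most like the members' mean. Each mouse is 1 library, no label gives a batch, and batch and group cannot be told apart where groups were handled apart.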

Additional observations from a re-analysis of the deposited data

Results flagged for a closer look

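Of 36 gene and group combinations tested, 2 held a mouse set far from the rest of its group by Dixon's criterion, and chance flags about 1 in 20 groups. C2 in the IKKβ+/+ mice with saline had a low value in mouse X2376, 128 normalized counts against 171 in the nearest mouse. Leaving this mouse out moved the C2 difference between genotypes at baseline to −0.86. Cfp in the same group had a high value in mouse X2378, 257 against 195 in the nearest mouse, and X2378 was the mouse with the highest value of all 19 in 4 of the 9 genes.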

How the results depend on the processing

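No member changed the direction of a call under any alternative. Of 2052 values of single members under alternatives, 1948 kept their side of the threshold, 62 lost a call and 42 gained one. TMM scaling, a pseudocount of 4 and a fold change above 1.5 left the number of members called as it was in each comparison, and the count between genotypes with Ang II was 0 under every alternative. The number of members called for Ang II against saline in IKKβ−/− mice (1) was 0 with only the groups compared in the fit, at an adjusted p under 0.05, with the adipocyte score and without X2384 and X2385, 2 with array weights, edgeR and DESeq2, 3 with the fibroblast score and 4 without X2350 and X2380. For IKKβ−/− against IKKβ+/+ with saline (2) it was 1 without a filter, with edgeR and without X2384 and X2385, 7 with only the groups compared, 5 without X2350 and X2380, and 0 at an adjusted p under 0.05 and with the fibroblast, macrophage or adipocyte score. For Ang II averaged over genotypes (1) it was 0 without a filter, at an adjusted p under 0.05, with the adipocyte score and without X2384 and X2385, 2 with array weights, edgeR, DESeq2, the macrophage score and without X2350 and X2380, and 3 with the fibroblast score. For the genotypes averaged over treatments (0) it was 1 with the fibroblast score and without X2350 and X2380, and for the difference of the Ang II effects (0) it was 1 with DESeq2. With each mouse left out in turn, the counts ranged from 0 to 1 for Ang II in IKKβ+/+ mice, 0 to 4 in IKKβ−/− mice, 0 to 5 between genotypes with saline, 0 to 2 for Ang II averaged, and 0 to 1 for the genotypes averaged and for the difference. The correlation of C2 and Cfb ranged from 0.18 (without X2380) to 0.66 (without X2409). The cause was not tested. The alternatives that leave out X2350 and X2380 or X2384 and X2385 were chosen after seeing the data. No paired analysis was possible because the groups share no replicate numbers.

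The calls rest on 4 or 5 mice per group and adjusted p-values near the threshold, and the depth gives Cfb as few as 4 reads. A count of 0 does not show that levels were equal.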
